A study of Mus musculus with 11 samples.

Results

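The nuclear genes of the respiratory chain were followed in mouse T cell acute lymphoblastic leukaemia (T-ALL) with and without Utx. Rows were taken from the deposited table of read counts when the symbol began with Nduf, Uqcr or Atp5, or with Cox and a digit, or was Sdha, Sdhb, Sdhc, Sdhd, Cyc1 or Cycs. The rule found 101 of the 37224 rows. They hold 36 subunits of complex I, 4 of complex II, 9 of complex III, 18 of complex IV and 15 of complex V, together with cytochrome c, 4 assembly factors of complex I, 8 of complex IV and 6 further rows that are no subunit but share the start of a name. Of the 101 rows, 93 had at least 100 counts over both genotypes and 8 had fewer. The rule itself uses names alone.

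The respiratory chain sits in the inner mitochondrial membrane. Complex I takes electrons from NADH and complex II from succinate. Both pass them by way of ubiquinone to complex III, from there by cytochrome c to complex IV, and on to oxygen. Complexes I, III and IV pump protons, and complex V, the ATP synthase, lets the protons flow back and makes ATP. Most subunits are encoded in the nucleus and imported, and a few are encoded in the mitochondrial genome. Nuclear respiratory factor 1 (NRF1), the ETS family factor GABPA and YY1 are known activators of many of the nuclear genes. Rapidly dividing T lineage cells use the chain for ATP and for the aspartate that nucleotide synthesis needs.

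The leukaemias came from cKit-positive blood progenitors of C57/BL6 background that were infected in culture with a retrovirus carrying activated Notch1 (Notch1-IC) and given to recipient mice by vein. Both groups carried Notch1-IC and differed in the donor's Utx, an X-linked histone demethylase listed as Kdm6a: the knockout group is labelled Utx-/Y, and the wild-type group Utx+/+ or Utx+/Y. The labels list 5 knockout samples (2 of bone marrow, 3 of spleen) and 6 wild-type samples (2 of bone marrow, 4 of spleen). Of these 11 samples, 3 are repeat runs, and no animal ages are given. Neither the promoter of the virus, nor the Cre line behind the knockout, nor the number of mice per sample could be read from the labels.

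Only 1 summed count per gene and genotype was available, summing to 106445530 counts for knockout and 108015222 for wild-type. No difference therefore has a replicate check and no test over animals was possible. Kdm6a, the targeted gene, stood at 10.5 against 58.3 counts scaled to the pool's total (CPM; knockout before wild-type here and below). Xist, which coats an inactive X chromosome, stood at 0.705 against 203 CPM, so sex and Utx genotype differ together between the pools and cannot be told apart. All 15 T cell markers were present, summing to 4472 against 5167 CPM. The 13 erythroid markers summed to 26346 against 13385 CPM, the 18 granulocyte and monocyte markers to 2715 against 2093, and no marker of either list was at 0. B cell markers summed to 6.9 against 8.0 CPM; Pax5 was lower (63 against 265 counts) and Cd79b higher (218 against 112). Stromal and endothelial markers summed to 148 against 183 CPM, but 5 of the 7 measured were higher, with a median log2 ratio of 0.28. Cxcl12 stood at 17.4 against 2.31 CPM and Lepr at 2.14 against 0.796, while Pdgfrb was lower at 31.7 against 88.2. The part of these other cells in the results below was not tested. In such bulk RNA, fewer cells of a type and less RNA per cell cannot be told apart.

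The promoters are shown first because these genes are known for shared activator sites. RefSeq promoters (GRCm38.p6), running from 250 bases before to 50 bases after the start of a gene, could be matched for 80 of the 101 rows. The first pair below holds a core NRF1 word and belongs to genes with unlike ratios: Uqcr11, a small subunit of complex III with one of the lowest ratios (chr10:80406772-80407071, minus strand), and Cycs, cytochrome c, nearly equal in both pools (chr6:50566520-50566819, minus strand). The second pair belongs to the common and the testis form of one complex IV subunit, Cox6b1 (chr7:30626065-30626364, minus strand) and Cox6b2 (chr7:4753045-4753344, minus strand), of which only the second passed a 2-fold difference. Capitals mark the words searched for, each sequence is written 5′ to 3′ along its gene, and Cox6b2 held none of the words.
Uqcr11: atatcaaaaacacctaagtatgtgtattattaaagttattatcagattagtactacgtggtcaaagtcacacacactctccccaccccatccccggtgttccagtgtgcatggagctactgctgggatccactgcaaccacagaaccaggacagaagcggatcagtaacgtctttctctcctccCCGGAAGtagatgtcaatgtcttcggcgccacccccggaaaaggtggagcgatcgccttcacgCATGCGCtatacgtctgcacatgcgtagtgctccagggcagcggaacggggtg
Cycs: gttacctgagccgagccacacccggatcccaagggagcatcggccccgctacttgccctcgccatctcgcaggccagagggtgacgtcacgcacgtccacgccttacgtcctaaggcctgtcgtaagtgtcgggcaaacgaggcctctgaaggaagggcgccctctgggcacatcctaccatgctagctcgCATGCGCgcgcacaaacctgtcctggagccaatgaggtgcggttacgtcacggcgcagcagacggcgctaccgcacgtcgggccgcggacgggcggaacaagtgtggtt
Cox6b1: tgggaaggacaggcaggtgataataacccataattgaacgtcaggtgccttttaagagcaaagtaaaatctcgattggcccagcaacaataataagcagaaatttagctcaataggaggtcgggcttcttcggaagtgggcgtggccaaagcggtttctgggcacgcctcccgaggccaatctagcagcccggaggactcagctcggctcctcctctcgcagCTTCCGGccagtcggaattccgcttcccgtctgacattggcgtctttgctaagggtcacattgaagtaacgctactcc
Cox6b2: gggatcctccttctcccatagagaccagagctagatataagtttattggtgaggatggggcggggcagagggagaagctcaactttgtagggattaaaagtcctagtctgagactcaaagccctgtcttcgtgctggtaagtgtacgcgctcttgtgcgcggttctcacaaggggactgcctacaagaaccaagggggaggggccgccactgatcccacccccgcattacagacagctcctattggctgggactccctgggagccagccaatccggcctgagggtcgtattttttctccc

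The words searched on both strands were GCGCATG for NRF1, CCGGAAG for ETS factors such as GABPA, and AAGATGG for YY1. The ETS and YY1 words can overlap at the letters AAG. In Uqcr11 the NRF1 word began at -3 and the ETS word at -66 relative to the start, in Cycs the NRF1 word began at -59, and in Cox6b1 the ETS word began at -28. The NRF1 word was in the promoters of 15 of the 80 matched genes (18.8%), against 7.92% of 9109 genes with at least 100 counts and 4.41% of all 27025 genes in the promoter table. The ETS word was in 20 (25%), against 19.7% and 9.93%, and the YY1 word in 13 (16.3%), against 8.22% and 7.28%. Genes with a word had somewhat lower median log2 ratios of knockout over wild-type than genes without, most so for the NRF1 word. The medians were -0.36 with and -0.28 without the NRF1 word, -0.29 and -0.26 for the ETS word, and -0.31 and -0.28 for the YY1 word. The differences were not tested. A word match is a description of the letters and not of binding.

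Most respiratory chain genes were slightly lower in the knockout pool, in all 5 complexes, and few were far from the rest. Over the 93 genes with enough counts the median log2 ratio was -0.29, against -0.07 over all 13833 such genes of the table, and 80 of the 93 were below 0 (86.0%, against 55.2% of all genes). With at least 10000 counts, 89.2% of 65 respiratory chain genes and 66.8% of all 3561 genes were below 0. The ratios ran from -0.73 for Ndufa3 to 1.13 for Cox6b2, with a standard deviation of 0.28 on the log2 scale against 1.06 for all genes. Genes of low count spread more (1.54 for all genes with 100 to 1000 counts). Among genes with at least 10000 counts the standard deviation was 0.23 for 65 respiratory chain genes and 0.55 for all 3561. In the same pools the 15 T cell markers had a median of -0.28, the 13 erythroid markers one of 0.67 and the 18 granulocyte and monocyte markers one of 1.26. Summed, the 101 respiratory chain genes took 10046 against 12062 CPM. That is a log2 ratio of -0.26 (exact 95% interval -0.27 to -0.26, which covers counting error only, as do all intervals here, and takes reads as independent molecules).

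**Figure D1:**
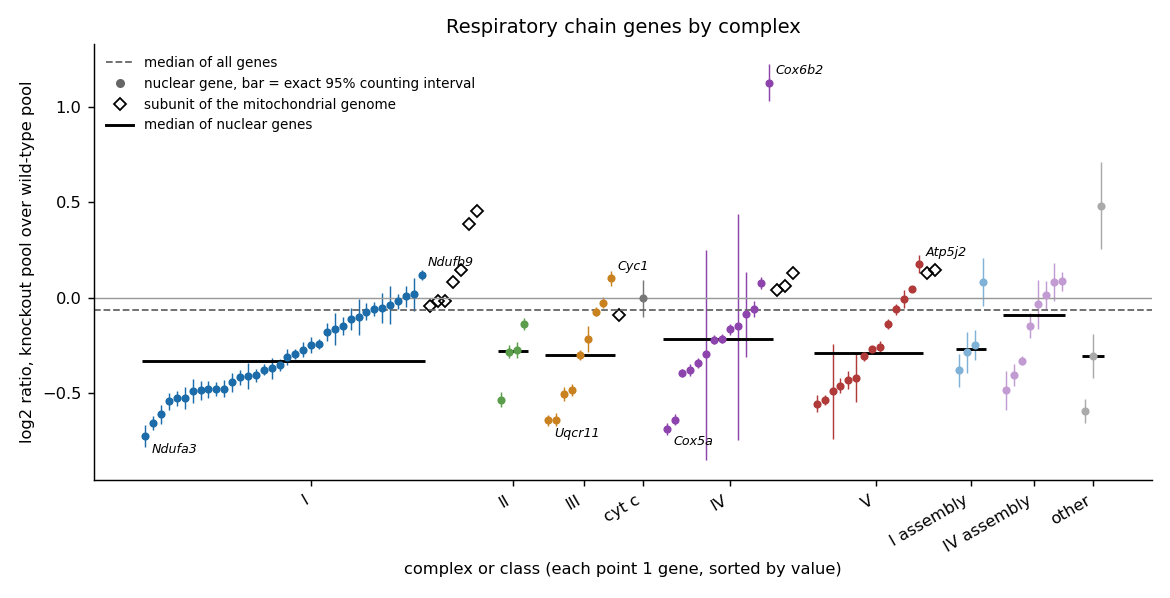
The log2 ratio of the knockout over the wild-type pool (y axis) is plotted for each respiratory chain gene with at least 100 counts, sorted within its complex or class (x axis), with exact 95% counting intervals as bars, class medians as thick lines and mitochondrial genome subunits as open diamonds. Most nuclear genes lie between -0.73 and 0.18, Cox6b2 stands alone at 1.13 (Atp5s, in the last class, is next at 0.48), and all 13 diamonds lie above the median of the nuclear genes of their complex.

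A gene was called when its pools differed by at least 2-fold, on at least 100 counts and with an interval that left out 0. By this rule 1 of the 93 genes was higher, Cox6b2, and 0 were lower, where 11.2% of all genes were higher and 5.36% lower. With a 1.5-fold minimum 1 was higher and 8 (8.60%) lower, against 18.9% and 14.7% of all genes. The 8 were Ndufa3, Ndufb7 and Ndufb3 of complex I, Uqcr11 and Uqcr10 of complex III, Cox5a and Ndufa4 of complex IV, and Cox4nb, which is no respiratory chain gene. The shares over all genes depend on depth. Among the 65 respiratory chain genes with at least 10000 counts, 7 (10.8%) were lower and 0 higher at 1.5-fold. Of all 3561 genes at that depth, 323 (9.07%) were lower and 260 higher at 1.5-fold. At 2-fold, 95 of the 3561 were higher and 44 lower, and of the 65 there were 0 higher and 0 lower. With no fold minimum, 70 genes (75.3%) had an interval wholly below 0 and 8 one wholly above it, against 46.7% and 37.0% of all genes. These shares depend on depth too. With at least 10000 counts they were 84.6% and 9.23% of the 65 respiratory chain genes, against 63.3% and 29.2% of all 3561. In the authors' deposited table, at a q under 0.05, 69 of the 93 were lower and 8 higher, against 46.2% and 36.6% of all genes. Differences of a few percent pass such a rule at this depth, so it says little about size.

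The depth scaling decided the sign of genes near 0. With TMM factors 63 genes (against 40.2% of all genes) had an interval below 0 and 16 (against 42.4%) one above it. With medians of ratios the counts were 63 and 15 (41.4% and 41.6% of all genes). With totals that left out mitochondrial genome and erythroid genes they were 61 and 16 (39.4% and 43.3%). The median of all genes was then 0.01, -0.00044 and 0.02, in that order. A scaling adds the same amount to every log2 ratio, so the distance of 0.22 between the medians of all genes and of the respiratory chain genes is fixed and is no check.

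**Figure D2:**
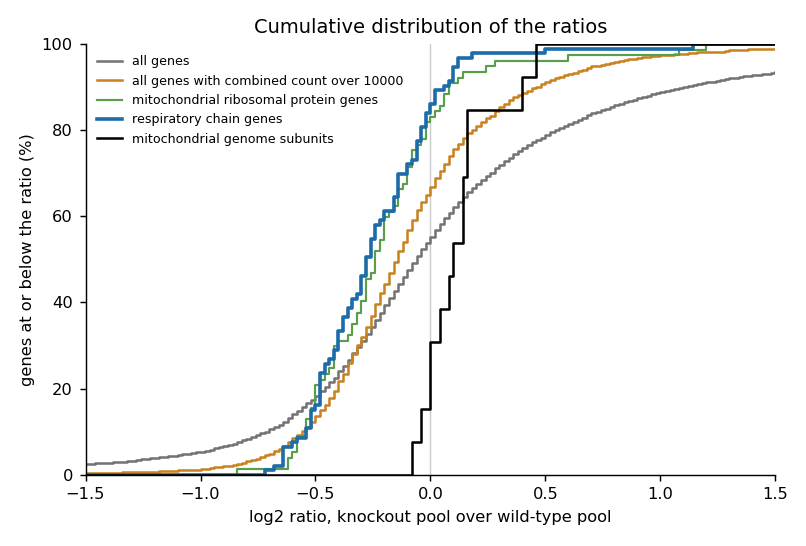
The cumulative share of genes (y axis, %) at or below each log2 ratio of knockout over wild-type (x axis) is drawn for the 93 respiratory chain genes, all 13833 genes, all 3561 genes with at least 10000 counts, the 77 mitochondrial ribosomal protein genes and the 13 mitochondrial genome subunits. The respiratory chain line reaches 86.0% at 0 and runs close to that of the mitochondrial ribosomal proteins, while the mitochondrial genome line lies to the right at 30.8%.

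Most complex I subunits were lower in the knockout pool. Its 36 nuclear subunits summed to 2715 against 3363 CPM (log2 ratio -0.31, -0.32 to -0.30), with a median of -0.33. By their intervals 30 were lower (83.3%, against 46.7% of all genes), 1 was higher (2.78%, against 37.0%) and 5 were neither. Among all genes with at least 10000 counts 63.3% were lower and 29.2% higher. The 7 core subunits, which hold the flavin and the iron-sulfur clusters, had a median of -0.28, and the 29 accessory subunits, which brace and stabilise the complex, one of -0.35.

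The core subunits named here ranged widely. Ndufs7, which carries the last iron-sulfur cluster, had 4174 against 6104 counts, or 39.2 against 56.5 CPM (log2 ratio -0.53, interval -0.58 to -0.47). Ndufs8, another cluster protein, was at -0.28 and Ndufs3 at -0.11. Of the subunits that take electrons from NADH, Ndufv2 was at -0.38, with 17984 against 23731 counts, and Ndufs1 at -0.07. Ndufv1, which binds NADH and flavin, was at 103 against 104 CPM (log2 ratio -0.02, interval -0.06 to 0.02), a difference not detectable at this depth. Ndufv1 and Ndufv2, whose products lie side by side in the enzyme, thus had intervals that did not overlap.

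Of the accessory subunits, 3 passed the 1.5-fold minimum. Ndufa3 (ENSMUSG00000035674, chromosome 7, 3617373 to 3620327, plus strand; all gene positions are those of the GENCODE M21 annotation of GRCm38) had 3850 against 6475 counts, or 36.2 against 59.9 CPM (log2 ratio -0.73, interval -0.79 to -0.67). Ndufb7, a subunit on the intermembrane space side, had 10172 against 16298 counts and a ratio of -0.66 (-0.69 to -0.62). Ndufb3, a membrane arm subunit, had 5079 against 7887 counts and a ratio of -0.61 (-0.66 to -0.56). At the other end, Ndufb9 was the only complex I gene with an interval above 0, at 23066 against 21563 counts and a ratio of 0.12 (0.09 to 0.15). Ndufb2 stood at 0.02 and Ndufa9 at 0.01, with intervals that held 0, as did those of Ndufab1, the mitochondrial acyl carrier protein, and Ndufs5.

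Complex II also serves the citric acid cycle and has no subunit from the mitochondrial genome. It was lower by interval in 4 of 4 subunits, against 46.7% of all genes and 63.3% of those with at least 10000 counts. Sdhb, the iron-sulfur subunit, was the lowest, with 9356 against 13776 counts, or 87.9 against 128 CPM (log2 ratio -0.54, interval -0.58 to -0.50). The membrane anchors Sdhd and Sdhc were near each other at -0.29 (-0.32 to -0.25) and -0.27 (-0.32 to -0.23). Sdha, the flavin subunit that oxidises succinate, was at 141 against 156 CPM (log2 ratio -0.14, interval -0.17 to -0.11). The 2 catalytic subunits, Sdha and Sdhb, were thus at the ends of the range.

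Complex III had 7 of 9 subunits lower by their intervals (77.8%), 1 higher (11.1%) and 1 neither, with a median of -0.30. Over all genes 46.7% were lower and 37.0% higher, or 63.3% and 29.2% with at least 10000 counts. Uqcr11 (ENSMUSG00000020163, chromosome 10, 80402997 to 80406830, minus strand) had 17997 against 28586 counts, or 169 against 265 CPM (log2 ratio -0.65, interval -0.67 to -0.62). Uqcr10 had 10177 against 16117 counts and a ratio of -0.64 (-0.68 to -0.61). Both are small proteins bound near cytochrome c1. Uqcrfs1, the Rieske iron-sulfur protein, was at -0.51 (-0.54 to -0.47), Uqcrq at -0.49, Uqcrh, the hinge protein, at -0.30 and Uqcrb at -0.22. The 2 large core proteins, which help to hold the complex together, were close to equal, Uqcrc1 at -0.07 and Uqcrc2 at -0.03 (-0.05 to 0.00). Cyc1, cytochrome c1, which hands electrons to cytochrome c, was slightly higher, at 97.0 against 90.5 CPM (log2 ratio 0.10, interval 0.06 to 0.14). The 9 subunits summed to 1271 against 1576 CPM, a ratio of -0.31.

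Cytochrome c itself did not differ beyond counting error. Cycs, which also triggers cell death when it leaves the mitochondrion, had 1687 against 1716 counts, or 15.8 against 15.9 CPM (log2 ratio -0.003, interval -0.10 to 0.09). Of the 50-base stretches of its transcripts, 28.2% also occur in another annotated gene. Reads from such stretches cannot be placed uniquely, and how the authors counted them is not stated in the labels.

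Complex IV had the widest range of ratios of the 5 complexes only through the testis form Cox6b2, at 1.13. Its other measured subunits ran from -0.69 to 0.08, where those of complex I ran from -0.73 to 0.12. The 14 complex IV subunits with enough counts had a median log2 ratio of -0.22, with 9 lower, 2 higher and 3 neither. That is 64.3% lower and 14.3% higher, against 46.7% and 37.0% of all genes. Among all genes with at least 10000 counts 63.3% were lower and 29.2% higher, so the share lower was near that of abundant genes. All 18 complex IV subunits summed to 1831 against 2266 CPM. Cox5a (ENSMUSG00000000088, chromosome 9, 57521274 to 57532426, plus strand), a subunit on the matrix side, had 12745 against 20857 counts, or 120 against 193 CPM (log2 ratio -0.69, interval -0.72 to -0.66). Ndufa4, named for complex I but now placed in complex IV, had 15539 against 24609 counts and a ratio of -0.64 (-0.67 to -0.61). Cox4i1, which takes part in the regulation of the enzyme by ATP, was at 329 against 433 CPM, a ratio of -0.40. Cox6c, at 0.08 (0.04 to 0.11), was the only common subunit with an interval above 0. No catalytic subunit is among them, since Co1 to Co3 come from the mitochondrial genome.

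Several complex IV subunits exist as a common form and a form made mostly in muscle, lung or testis, and the testis form Cox6b2 was the exception among all respiratory chain genes. Cox6b2 (ENSMUSG00000051811, chromosome 7, 4751792 to 4753094, minus strand) had 2650 against 1228 counts, or 24.9 against 11.4 CPM (log2 ratio 1.13, interval 1.03 to 1.23). Its common partner Cox6b1 had 17883 against 20376 counts (log2 ratio -0.17, interval -0.20 to -0.14). Of the counts of the pair, Cox6b2 made up 12.9% (12.5 to 13.4) in the knockout and 5.68% (5.38 to 6.0) in the wild-type pool. No 50-base stretch of Cox6b2 occurs in another annotated gene. Tmem86b and Suv420h2, a histone methyltransferase, also on chromosome 7, were higher too, at 1.29 (471 against 195 counts) and 0.50. Their distance from Cox6b2 was not measured, and other genes of that chromosome were not examined for this. Testis forms of other subunits were not at such levels: Cox7b2 had 5 against 0 counts and Cox8c 1 against 0. The count of 0 allows up to 3 counts, or a share of up to 0.0142% of the pair with Cox7b and up to 0.00930% of the pair with Cox8a.

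The muscle forms were nearly absent. Cox6a2 had 50 against 26 counts, Cox7a1 47 against 53, and Cox8b 1 against 2. Their shares of the pairs with Cox6a1, Cox7a2 and Cox8a were 0.208% against 0.0919%, 0.532% against 0.567%, and 0.00367% against 0.00620%. Of these 3, only for Cox6a2 did the intervals of the pools part (0.154 to 0.274 against 0.0600 to 0.135), on few counts. Cox4i2, the lung form, had 52 against 65 counts, or 0.148% against 0.139% of its pair with Cox4i1. The common partners had ratios of -0.22 for Cox6a1, -0.06 for Cox7a2, -0.22 for Cox8a, -0.38 for Cox7b and -0.40 for Cox4i1. Ndufa4l2, an oxygen-responsive relative of Ndufa4, had 46 against 21 counts, a share of 0.295% (0.216 to 0.394) against 0.0853% (0.0528 to 0.130). The 8 muscle markers summed to 2.93 against 2.36 CPM, and 4 of them had at least 100 counts. Of these 4, Tnnt3 was higher, with 103 against 34 counts (log2 ratio 1.61, interval 1.05 to 2.22). The other 3, Acta1, Ckm and Tnnc2, had intervals that held 0. Mb, myoglobin, had 0 against 3 counts, too few to measure.

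**Figure D3:**
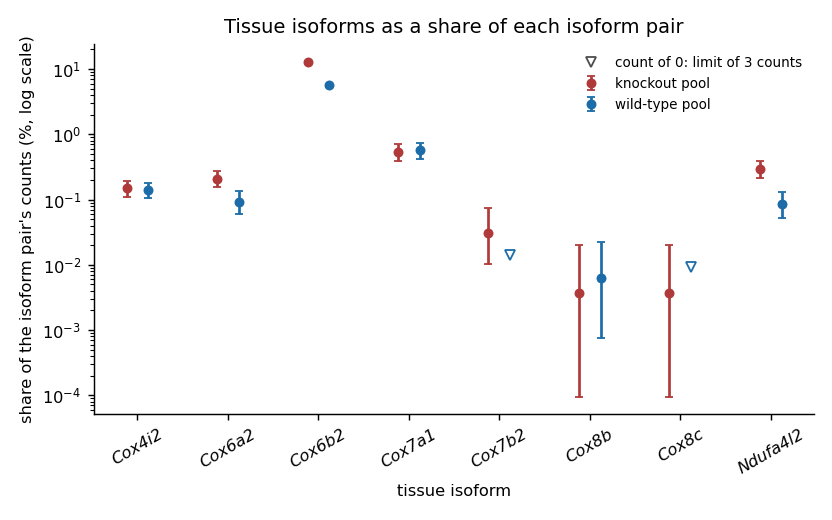
The share of the counts of an isoform pair (y axis, %, log scale) taken by each tissue form (x axis) is shown for the knockout (red) and wild-type pool (blue) with exact 95% counting intervals; open triangles give the limit of 3 counts where a pool had 0. Cox6b2 lies far above the others at 12.9% and 5.68%, and the next highest is Cox7a1 at 0.532% and 0.567%.

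Complex V had 11 of 14 measured subunits lower by their intervals (78.6%), 2 higher (14.3%) and 1 neither, with a median of -0.29. Over all genes 46.7% were lower and 37.0% higher, or 63.3% and 29.2% with at least 10000 counts. The 15 subunits summed to 3246 against 3670 CPM (log2 ratio -0.18, interval -0.18 to -0.17), the smallest difference of the 5 complexes. The log2 ratio of the sum was -0.097 with TMM, -0.086 with totals that left out mitochondrial genome and erythroid genes, and -0.28 without Atp5b, its most abundant subunit. Atp5b, the catalytic beta subunit, had 113696 against 111700 counts, the highest combined count of the 101 genes, and a ratio of 0.05 (0.03 to 0.06). Atp5a1, the alpha subunit with which it forms the head in equal numbers, had 92044 against 112669 counts, or 865 against 1043 CPM, and a ratio of -0.27 (-0.28 to -0.26). The intervals of this matched pair did not overlap. Of the central stalk subunits, Atp5c1 was at -0.14, Atp5d at -0.06 and Atp5e, the smallest, at -0.56 (-0.60 to -0.51), with 6488 against 9697 counts.

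The 9 measured subunits of the membrane part and the side stalk had a median of -0.42, against -0.14 for the 5 of the head and central stalk. Their ranges overlapped, from -0.54 to 0.17 and from -0.56 to 0.05, and the split was chosen after the values were seen. The ring that turns with the protons is made of 1 protein that 3 genes encode with different import signals. Atp5g3 had 19458 against 28693 counts, or 183 against 266 CPM (log2 ratio -0.54, interval -0.57 to -0.51). Atp5g1 had 902 against 1227 counts and a ratio of -0.42 (-0.55 to -0.30), and Atp5g2 only 15 against 23. Atp5g3 made up 95.5% and 95.8% of the counts of the 3 genes in the knockout and wild-type pool, with overlapping intervals (95.2 to 95.8 and 95.6 to 96.0), while the sum of the 3 was lower, at 191 against 277 CPM. Of the stretches of Atp5g2, 38.3% occur in other genes. Atp5j2, a small membrane subunit, was the highest at 73.5 against 65.1 CPM (log2 ratio 0.17, interval 0.13 to 0.22).

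The 12 assembly factors within the rule had a median of -0.20, against -0.30 for the 77 measured subunits of complexes I to V. Complex I factors had a median of -0.27 over 4 genes, 3 of them lower, from Ndufaf2 at -0.38 to Ndufaf3 at 0.08. Complex IV factors had a median of -0.09 over 8 genes, with 4 lower, 1 higher and 3 neither. Together 58.3% of the 12 factors were lower by their intervals and 8.33% higher, against 46.7% and 37.0% of all genes. Cox18, which helps to insert mt-Co2 into the membrane, was the lowest at -0.49 (-0.59 to -0.39), followed by Cox10, which makes the heme precursor, at -0.41. Cox7a2l, which joins complexes III and IV into supercomplexes, was the most abundant at 226 against 285 CPM (-0.33). Cox17, the copper carrier, was at 0.09 (0.04 to 0.13), and Cox11, Cox15 and Cox19 had intervals that held 0.

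The last 6 rows share the start of a name and are no subunits; Ndufa4l2, given above, is one of them. Cox4nb, a neighbour of Cox4i1 now named Emc8, belongs to a membrane complex of the endoplasmic reticulum and had 3530 against 5420 counts (log2 ratio -0.60, interval -0.66 to -0.54). Atp5sl, now Dmac2, a factor for complex I assembly, was at -0.31, and Atp5s at 0.48 (0.26 to 0.71) on 383 against 278 counts. Atp5l2 and Atp5l-ps1 are both processed pseudogenes in GENCODE M21. Atp5l2 had 3 against 11 counts, and Atp5l-ps1 had none.

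The subunits of the mitochondrial genome did not follow the nuclear ones. All 13 were measured, with a median log2 ratio of 0.08. By their intervals 9 were higher (69.2%, against 37.0% of all genes) and 4 lower (30.8%, against 46.7%). With TMM the median was 0.16 and with medians of ratios 0.15, and in both 12 were higher and 1, mt-Cytb, lower. They summed to 296645 against 274155 CPM, or 29.7% and 27.4% of all counts. The highest was mt-Nd3 at 0.45 (415942 against 308039 counts), followed by mt-Nd1 at 0.39. The lowest was mt-Cytb, the only such subunit of complex III, at -0.09. The medians were 0.08 for the 7 subunits of complex I, 0.06 for the 3 of complex IV and 0.14 for the 2 of complex V, each, like mt-Cytb, above the median of the nuclear subunits of the same complex. Each pool takes these transcripts and the nuclear ones from the same total, so a larger share of one lowers the others. With mitochondrial genome and erythroid genes left out of the total, the median was 0.18 for these 13 genes, -0.19 for the nuclear respiratory chain genes and 0.02 for all genes. The part of this shared total in the nuclear ratios was not tested.

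Regulators of mitochondrial biogenesis were mixed. Of 18 genes, 17 had enough counts, with a median of -0.25. By their intervals 11 were lower (64.7%, against 46.7% of all genes), 5 higher (29.4%, against 37.0%) and 1 neither. At the 2-fold rule 0 were called, where 11.2% of all genes were higher and 5.36% lower. At 1.5-fold 5 were lower (29.4%, against 14.7% of all genes) and 0 higher (against 18.9%). Ppargc1b, a coactivator of the pathway, was the lowest at 6.60 against 11.9 CPM (log2 ratio -0.85, interval -0.98 to -0.72). Tfam, which packs mitochondrial DNA and helps to start its transcription, had 5654 against 9310 counts and a ratio of -0.70 (-0.75 to -0.65). The polymerase subunit Polg2 was at -0.76, Tfb2m, a transcription factor of mitochondria, at -0.67 and Mterf at -0.60. The activators Nrf1 and Gabpa were at -0.48 and -0.41 and Yy1 at -0.11. Gabpa overlaps Atp5j, itself at -0.46, on the other strand, and reads of the pair may not be separable. Tfb1m was the highest at 0.45, and Myc, a growth-promoting transcription factor, was at 0.28.

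Assembly factors outside the rule, 23 genes, had a median of -0.21, which was -0.13 with TMM. At the 2-fold rule 1 was higher and 0 lower, against 11.2% and 5.36% of all genes. The higher one was Taco1, an activator of mt-Co1 translation, with 679 against 326 counts and a log2 ratio of 1.08 (0.89 to 1.27). By the intervals of the 23 genes 14 were lower (60.9%, against 46.7% of all genes), 5 higher (21.7%, against 37.0%) and 4 neither. Ttc19, a complex III factor, was the lowest at -0.64. The 13 genes of ATP exchange and the inner membrane had a median of -0.05, which turned to 0.03 with TMM. Slc25a3, the phosphate carrier that feeds complex V, was the lowest at -0.56 (187 against 276 CPM), and Atpif1, the inhibitor of complex V, the highest at 0.20.

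Other large gene groups had like medians. Mitochondrial ribosomal protein genes (77 measured) had a median log2 ratio of -0.25, cytosolic ribosomal protein genes (80) one of -0.26 and proteasome subunits (39) one of -0.17. By their intervals 75.3%, 72.5% and 84.6% of them were lower, against 75.3% of the respiratory chain genes. Abundant genes as a whole were lower too: the 3561 genes with at least 10000 counts had a median of -0.15, against -0.31 for the 65 respiratory chain genes among them. Short transcripts likewise had lower ratios. Among genes with at least 10000 counts and a transcript under 1000 bases, the 40 respiratory chain genes had a median of -0.43 and the 322 others one of -0.23. Across the 93 genes the ratio went with transcript length at a Spearman rho of 0.34, given as a description, since all points come from the same 2 pools.

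On the X chromosome lie Ndufa1 (-0.49), Ndufb11 (-0.48) and Cox7b (-0.38), all lower, with a median of -0.48 against -0.27 for the 90 measured autosomal genes. All 449 measured X-linked genes had a median of -0.03. With sex markers unlike between the pools, as given above, the part of sex in these 3 values was not tested.

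Scaled to transcript length, the levels of the subunits spread widely. The highest level in the wild-type pool was that of Uqcr11, with 380 CPM per kilobase in the knockout and 595 in the wild-type pool, followed by Cox4i1 (436 against 573), Uqcrh (441 against 544), Cox8a (466 against 543) and Atp5b (557 against 540). Several obligatory subunits were listed far lower, among them Cox7c at 5.55 against 5.90, Atp5l at 3.92 against 5.51 and Cycs at 5.07 against 5.09. Of their 50-base stretches, 23.0%, 68.5% and 28.2% also occur in other annotated genes. Such stretches make up over 20% of 17 of the 101 genes, and 55 have none. The 50 measured genes with none had a median log2 ratio of -0.30 and the 43 with some one of -0.25. Over the 93 genes the shared percentage and the level per kilobase were unrelated in rank (Spearman rho -0.02). Exons of 31 of the 101 genes overlap those of another annotated gene, among them Cox5a with Gm26631 over 269 bases and Atp5j with Gabpa over 182, each on the opposite strand, but Ndufa3 with Tfpt over only 4. Without knowing the strand used in counting, such reads cannot be told apart.

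**Figure D4:**
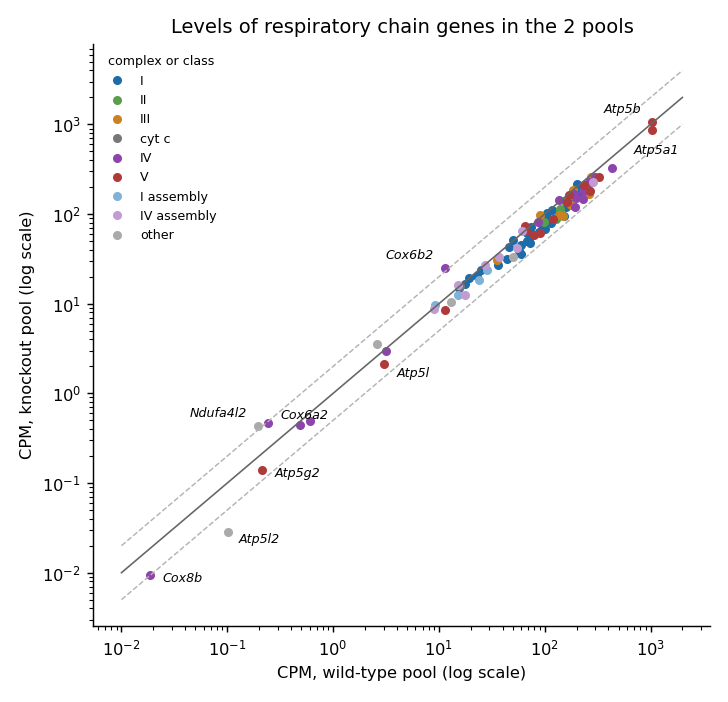
Each point is 1 respiratory chain gene with counts in both pools, at its CPM in the wild-type pool (x axis, log scale) and in the knockout pool (y axis, log scale), coloured by complex; the solid line marks equality and the dashed lines 2-fold differences. Most points lie just below the solid line, Atp5b and Atp5a1 lie at the top at 1068 against 1034 and 865 against 1043 CPM, and Cox6b2 lies above the upper dashed line.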

How the data were processed

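Strand-marked libraries of poly(A) RNA were sequenced from one end over 50 bases, per the labels' protocols. CASAVA, TopHat and the build mm9 are named in the submitters' processing notes, without versions. The annotation, the counting tool, the strand used in counting and the samples in each pool were not given in the sources used here. Deposited by the authors were whole read counts per gene, summed over each genotype, with log2 fold changes, a z score, p-values and q-values from DEGseq, per the file headers and the series' design text. Of the value columns, the first was read as the knockout from the order of genotypes in the table's title, and Kdm6a was then checked. Columns of single samples used numbered 0, so replicates, pairing and leave-one-out fits could not be examined; the authors' q-values rest on the same pooled counts and carry no spread between animals.

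CPM values used the total of the gene rows, and log2 ratios a pseudocount of 0.5 counts. Exact 95% Clopper-Pearson intervals came from the knockout share of a gene's count (scipy 1.17.1). Calls needed 100 counts, a 2-fold difference (1.5-fold as a second rule) and an interval without 0. TMM, median of ratios and upper quartile factors came from edgeR 4.0.16. The calculations were tested on simulated data. All 101 rows matched GENCODE M21 by Ensembl identifier; transcript length is the median over basic protein-coding transcripts, and coordinates are not those of mm9. Shared stretches are 50-base words of a gene's transcripts that occur in transcripts of another gene.

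The members and lists were chosen with earlier results of these data known, and the split of complex V into head and membrane part was chosen after its values were seen. Genes named are the called ones, the 2 highest and 2 lowest of each complex, complex II, Cyc1, Cycs, tissue forms and their partners, the Atp5g genes, the complex I core, and the highest, lowest and called genes of the other lists. Further genes were named to account for members or to show regulators. A complex I core gene is not reported here by name.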

Additional observations from a re-analysis of the deposited data

How the results depend on the processing

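Of 165 alternative values, 116 lay within the median counting half-width of the genes summarised and 49 lay outside it. For a count of genes the limit was 1.5 times. A turn of direction in a called value was looked for only in Cox6b2 with TMM, and 0 were found. Its ratio went from 1.13 to 1.21, and a shift of 0.08 could not turn it, so this is no check. With TMM factors, medians of ratios and totals without mitochondrial genome and erythroid genes, the median log2 ratio of the respiratory chain genes was -0.21, -0.22 and -0.19. In the same order, complex I had -0.25, -0.26 and -0.24, complex II -0.20, -0.21 and -0.19, complex III -0.22, -0.23 and -0.21, complex IV -0.14, -0.15 and -0.13, and complex V -0.21, -0.22 and -0.20. The number of genes with an interval above 0 was 16, 15 and 16 in place of 8, because these scalings raise every ratio. The mean of complex IV, in place of its median, was -0.17. A minimum of 20 counts gave 2 genes called higher, with Ndufa4l2 as the second, and a 1.5-fold minimum gave 8 called lower. Restricted to genes without shared 50-base stretches, a choice made after seeing the data, 3 genes had an interval above 0 and 40 one below it, because fewer genes were counted. Under the 3 scalings the median of the mitochondrial genome subunits was 0.16, 0.15 and 0.18, and that of the genes of ATP exchange changed sign, to 0.031, 0.018 and 0.042. With the last scaling the assembly factors outside the rule had -0.12 and the biogenesis regulators -0.16. The log2 ratios of the summed CPM of complexes I to V were -0.23, -0.21, -0.23, -0.23 and -0.097 with TMM, and -0.22, -0.20, -0.22, -0.22 and -0.086 without mitochondrial genome and erythroid genes. Without the most abundant subunit of each complex they were -0.34, -0.37, -0.37, -0.29 and -0.28. No paired analysis was possible because only 1 pooled count per genotype was available. Depth limits the 8 genes with under 100 counts, and the pools give no spread between animals.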
